A study of Sus scrofa with 226 samples.

Results

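Neurotrophic factors keep sensory neurons alive during development and tune their excitability and peptide content in the adult, and they act through a small set of receptors. Which of these receptors single pig sensory neurons combined, and how the receptors related to the size and firing of the same neurons, was examined for 8 genes: NTRK2, NTRK3, NGFR, RET, GFRA1, GFRA2, GFRA3 and KIT. The genes were chosen by name, and all 8 were found by symbol among the 30420 genes of the count table. The cells were sensory neurons of the dorsal root ganglia, which hold the cell bodies of the nerves of touch, pain and position, from 10 wild-type pigs (animals 1 to 10, aged 11, 11, 12, 14, 15, 15, 18, 20, 17 and 18 weeks), with 6 to 35 cells per animal. They were dissociated and cultured, recorded with a patch pipette after 1, 2 (78 cells) or 3 days (24 cells) in culture, and then collected whole for Smart-Seq2, a method that copies the mRNA of 1 cell along its full length. No animal received a treatment according to the labels, so the comparisons lie between cells of the same animal, between days of culture and across age. Cells had been taken out of the ganglion and kept in culture without their targets, which limits them as a model of neurons in place.

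NTRK2 and NTRK3 encode the receptor tyrosine kinases TrkB, which binds BDNF and NT-4, and TrkC, which binds NT-3. NGFR encodes p75, a receptor without kinase activity that binds all neurotrophins and works beside the Trk receptors. RET is the shared signalling kinase of the GDNF family, and GFRA1, GFRA2 and GFRA3 encode the membrane-anchored co-receptors that bind GDNF, neurturin and artemin and present them to RET. KIT is the receptor tyrosine kinase for stem cell factor, encoded by KITLG. In rodent ganglia TrkB and TrkC are best known from mechanosensory and proprioceptive neurons with myelinated axons, and RET with GFRA2 from non-peptidergic nociceptors, while RET with GFRA3 and KIT are known from nociceptors that carry peptides.

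The total count was 109726 in the shallowest cell, 740524.5 at the median and 5506278 in the deepest. A cell was said to carry a gene at a level of 10 CPM, a count scaled to the total of the cell, or more, which corresponded to 1.10 counts in the cell with the lowest total and 7.41 counts at the median total, so carriage in the shallowest cells rests on few reads. The neuronal markers had a median score of 7.93 on the log2(CPM + 1) scale, and 1 of the 9 found, RBFOX3, was at 0 in most cells. Of the marker lists of other cells, the median score was 2.26 for satellite glia, 1.83 for Schwann cells and 0.986 for macrophages. At 0 in most cells were 3 of the 7 satellite glia genes found, 6 of 8 Schwann cell genes (SOX10 among them) and 6 of 8 macrophage genes (C1QA among them). The highest score of a cell was 7.19 for satellite glia, 3.81 for Schwann cells and 8.32 for macrophages, so some libraries scored high on these lists. KIT is also a mast cell gene. The 3 mast cell markers found (MS4A2, HDC and FCER1A) were each at 0 in most cells and their median score was 0.

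RET and GFRA1 were carried by most neurons and GFRA2 by few. Of the Trk genes, NTRK3 was carried by 51 cells, on average 24.9% ± 13.8 of an animal's cells (SD, n = 10 animals), with 3.23% in the lowest animal and 50% in the highest. NTRK2 was carried by 46 cells, 18.1% ± 12.8 per animal, and 2 animals, 3 and 8, had no carrier among 11 and 6 cells. Both were read at low levels, since the median among carriers was 21.6 CPM for NTRK3 and 23.3 CPM for NTRK2, and only 6 and 11 cells reached 50 CPM. NGFR was carried by 50.4% of cells, 48.03% ± 13.2 per animal with a range of 23.1% to 68.6%.

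The GDNF family receptors differed widely among themselves. RET was carried by 88.9% of cells, 89.3% ± 9.66 per animal, and in animals 1, 8 and 9 by every cell. GFRA1 was carried by 87.2% of cells, 88.8% ± 11.9 per animal, with a lowest share of 71.4% in animal 4. GFRA3 was carried by 69.9% of cells, but its share ran from 36.4% of the cells of animal 3 to 100% in animal 8, the widest range among the 8 genes. GFRA2 was carried by 24 cells, 10.7% ± 8.55 per animal, and was at 0 in 80.97% of all cells. KIT was carried by 59.3% of cells, 57.02% ± 14.9 per animal, and spanned the levels from 0 in 40 cells to 1905 CPM. Of the values above 0, 70.5% were not whole for GFRA3 and 50% for GFRA1, so the authors' counting assigned some of their reads in part, and reads shared with another gene cannot be told apart for these 2 genes. The values of RET, NTRK3, GFRA2 and NGFR were whole in every cell, to within 1e-06.

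**Figure D1:**
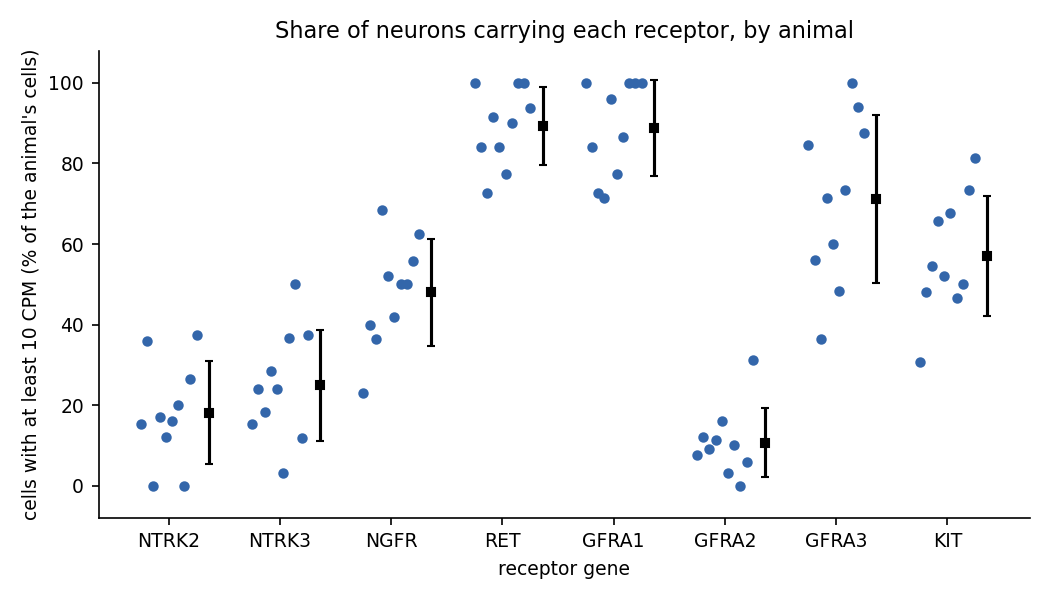
Percent of each animal's cells with at least 10 CPM (y axis) for the 8 receptor genes (x axis). Each circle is 1 of 10 animals, in the order of their numbers from left to right, and the square with bars is the mean and SD over animals. RET and GFRA1 lay above 70% in every animal, GFRA2 was at or below 16% in 9 animals and at 31.25% in animal 10, and GFRA3 ranged from 36.4% to 100%.

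Single neurons combined several receptors. The median was 4 of the 8 genes per cell, 8 cells carried none and 1 carried all 8, and the cells fell into 63 combinations. The most common was RET with GFRA1, GFRA3, NGFR and KIT, in 36 cells of 8 animals. The next was RET with GFRA1 and GFRA3 alone, in 25 cells of 6 animals, followed by RET with GFRA1, NGFR and KIT in 13 cells of 8 animals. The 8 cells with no receptor came from 4 animals and had a median of 7807 genes detected, against 14065.5 in the most common combination.

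The 2 leading combinations differed in their marker genes. OSMR, which encodes a subunit of the oncostatin M receptor, and ADCYAP1, which encodes PACAP, a neuropeptide, served as markers, each counted from 32 CPM. ADCYAP1 was common among all cells, where it reached 10 CPM in 79.6% and 50 CPM in 68.1%. OSMR reached 10 CPM in 46.5% of all cells and 50 CPM in 29.2%. The shares of all cells at 32 CPM lay between these values. Of the 36 cells with RET, GFRA1, GFRA3, NGFR and KIT, 35 had ADCYAP1 and 4 had OSMR. Of the 25 cells with RET, GFRA1 and GFRA3 alone, 24 had OSMR and 3 had ADCYAP1. All 11 cells in which NTRK3 joined RET, GFRA1 and GFRA3 had OSMR.

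The same cells also differed in their recordings, which took no part in forming the combinations. The files give the recorded values without units, under the names diameter, cslow (the name patch-clamp amplifiers give to the compensated cell capacitance, a measure of membrane area), APD (in this field usually the action potential duration) and 20, 50 and 100 Hz, the last 3 with values from 0 to 20. The cells with RET, GFRA1 and GFRA3 alone had a median diameter of 43.5 (35.8 to 54.4), a median cslow of 127.4 (36.8 to 192.2) and a median 50 Hz value of 3 (0 to 10). In the cells that also had NGFR and KIT, the medians were 34.1 (24.4 to 48.1), 62.7 (18.4 to 118.1) and 11 (1 to 20), so that the ranges overlapped while the medians lay apart. APD had medians of 4.17 and 2.76. These are counts and medians over cells of several animals, with no test.

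Few RET carriers lacked a co-receptor, and few cells of any kind did. Of the RET carriers, 98.01% carried at least 1 of the GFRA genes, against 92.9% of all cells and 13 of the 25 cells without RET. GFRA1 was carried with GFRA3 by 72.1% of RET carriers and 65.5% of all cells, and 65.2% of RET carriers had both without GFRA2, while 37 had GFRA1 as the only co-receptor, 6 had GFRA3 and 2 had GFRA2. Of the GFRA2 carriers, 18 of 24 also had GFRA1 and 17 had GFRA3.

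NGFR was carried by 54.3% of cells with NTRK2 and 49.4% of those without. For NTRK3 the shares were 50.98% with and 50.3% without. NTRK2 and NTRK3 met in 13 of the 84 cells with either. All 51 cells with NTRK3 carried RET, and 14 of 46 cells with NTRK2 (30.4%) carried GFRA2 against 10 of the others (5.56%), a higher share in 7 of 7 animals with at least 3 cells on each side. Cells above their animal's median for NTRK2 had on average 14405 genes detected against 11894 at or below it, and for NTRK3 14410 against 12105, and the part of this difference in the shared carriage was not tested.

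To compare levels across animals, the cells of each animal were divided at the animal's median of each receptor in turn, counts were summed per animal and side, and every other gene was tested by the quasi-likelihood method of edgeR. Animals were blocked, and p-values were adjusted over all genes after Benjamini and Hochberg. The gene that divided the cells was not tested in that fit. Levels below are log2 CPM of a sum, and differences are log2 fold changes of the high side over the low side with their standard error (SE).

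RET and GFRA3 rose together. In cells high for RET the GFRA3 level ran from 6.55 to 8.59 with a median of 7.81 over 10 animals, and in cells low for RET from 3.78 to 7.46 with a median of 5.39. The high side was above the low side in 10 of 10 animals, although the highest low sides overlapped the lowest high sides. The fold change was 2.34 (SE 0.25, adjusted p = 0.000344 by edgeR), in a comparison in which 1.66% of all genes tested passed in either direction. Divided by GFRA3, RET was higher by 1.10 (SE 0.14, adjusted p = 0.00042 by edgeR) in 10 of 10 animals, where 4.82% of genes passed. Here the levels of RET ran from 8.30 to 8.98 on the high side and from 6.62 to 8.40 on the low side. GFRA1 did not pass with either (0.44, SE 0.19, adjusted p = 0.278 by RET, and 0.20, SE 0.20, adjusted p = 0.628 by GFRA3), so of the 2 common co-receptors only the artemin co-receptor passed the test beside RET. The difference between the 2 co-receptors was not tested.

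GFRA2 moved opposite to GFRA3. Its level on the GFRA3-high side had a median of -0.52 (-2.50 to 3.70) and on the low side of 2.61 (-2.50 to 4.47), lower in 9 of 10 animals (-3.07, SE 0.80, adjusted p = 0.0393 by edgeR). The ranges overlapped over most of their length. The GFRA2 sum was 0 on the high side in 3 animals and on the low side in 1, so the size of this fold depends on the prior count. The call was lost without the 45 cells of highest glia and macrophage score (-2.45, adjusted p = 0.341 by edgeR), and at 1 day of culture alone GFRA2 was not tested. Divided by GFRA2, which left 6 animals, GFRA3 was lower by 0.98 on the log2 scale in 5 of 6 animals and did not pass (SE 0.26, adjusted p = 0.238 by edgeR), with 0.101% of genes passing and no member among them.

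KIT rose with NGFR. The KIT level had a median of 7.84 (6.0 to 9.49) in NGFR-high cells and of 6.06 (2.58 to 7.67) in NGFR-low cells, and was higher in 10 of 10 animals (2.203, SE 0.23, adjusted p = 0.000421 by edgeR, with 1.13% of genes passing). In the reverse division NGFR was higher in KIT-high cells in 8 of 10 animals but missed the threshold (1.16, SE 0.33, adjusted p = 0.0789 by edgeR), where 2.51% of genes passed and no member did. In shares of cells, KIT was carried by 81.6% of cells with NGFR and by 36.6% of those without, a higher share in 9 of 10 animals. The within-animal Spearman's rho over cells between KIT and NGFR had a mean of 0.51 ± 0.17 (SD, 9 animals with at least 8 cells), given as a description since cells of a library set share depth. That of RET and GFRA3 was 0.59 ± 0.09, positive in 9 of 9 animals, against 0.27 ± 0.23 for RET and GFRA1.

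NTRK2, NTRK3 and GFRA1 divided the cells with no other member passing. The dividing median was 0 for NTRK2 in animals 1, 3, 5, 6 and 7 and for NTRK3 in animals 2, 4, 5, 6 and 7. For GFRA2 it was 0 in every animal except animal 10. There the division set cells with any count of the gene against cells with none. Of all genes 0% passed in the division by NTRK2 (0 of 17311 by edgeR, 1130 at an unadjusted p under 0.05, and 96 with DESeq2), 0.0339% in that by NTRK3 and 0.0233% in that by GFRA1. GFRA2 was 2.199 higher in NTRK2-high cells (SE 0.94, adjusted p = 0.727 by edgeR) in 7 of 10 animals. NTRK3 was 1.44 higher in GFRA1-high cells (SE 0.50, adjusted p = 0.381 by edgeR) in 9 of 10 animals. Neither passed the test.

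**Figure D2:**
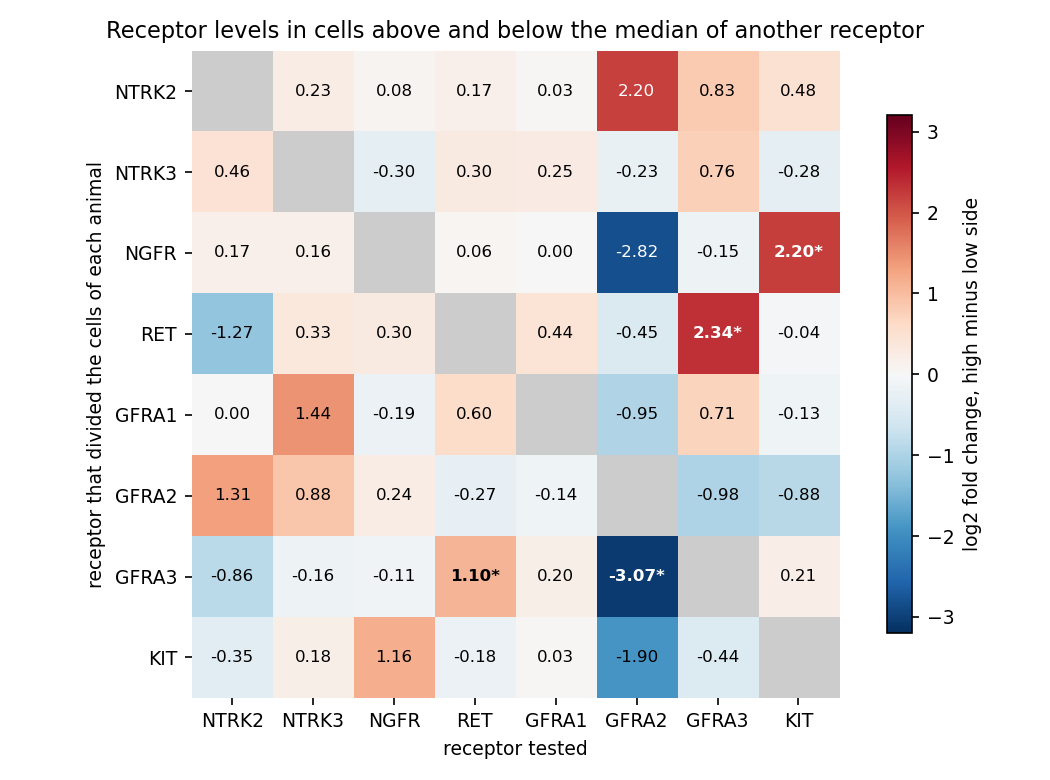
Log2 fold change of each receptor (columns) between cells above and cells at or below the animal's median of another receptor (rows), from sums per animal in 10 animals (6 for GFRA2). Red is higher and blue lower on the high side, grey squares are the dividing gene, and an asterisk marks an adjusted p under 0.05: GFRA3 by RET (2.34), RET by GFRA3 (1.10), KIT by NGFR (2.203) and GFRA2 by GFRA3 (-3.07).

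The divisions also separated cells with OSMR, whether or not they had ADCYAP1, from the others, to different extents. OSMR reached 32 CPM in 42.7% of RET-high and 24.1% of RET-low cells, in 49.1% of GFRA3-high and 18.1% of GFRA3-low cells, in 19.1% of NGFR-high and 46.6% of NGFR-low cells and in 14.5% of KIT-high and 50.9% of KIT-low cells. Genes detected also differed, with 14106 on the high and 12062 on the low side of the division by GFRA3. In cells with OSMR under 32 CPM alone, the fold of GFRA3 by RET was 2.16 with an adjusted p of 0.184, that of RET by GFRA3 was 0.90 with an adjusted p of 0.591, that of KIT by NGFR was 1.49 with an adjusted p of 0.847, and that of GFRA2 by GFRA3 was -1.47 with an adjusted p of 0.816, all by edgeR. None passed there, where at most 1 gene of all passed, while the fold of GFRA3 by RET was nearly as large as in all cells. Cells with at least 10000 genes detected gave GFRA3 by RET, RET by GFRA3 and KIT by NGFR as passing again, and GFRA2 by GFRA3 at -2.73 with an adjusted p of 0.0683.

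The sharpest contrast between receptors was that of 2 kinds of neuron, OSMR cells (OSMR at 32 CPM or more, ADCYAP1 below) and ADCYAP1 cells (the reverse), compared in the 6 animals with at least 3 cells of each kind, 44 and 86 cells in all. The 2 markers did not exclude each other. Over all animals 25 cells reached 32 CPM for both and 17 for neither, and these were left out of the comparison. RET and GFRA3 were higher in OSMR cells and NGFR and KIT in ADCYAP1 cells. These 4 of 8 members passed, against 7.41% of all genes tested (1259 of 16986). They were 2 higher, against 3.72% of genes, and 2 lower, against 3.69%. OSMR and ADCYAP1 themselves were not tested. The comparison uses the same libraries as the counts above and is not separate evidence.

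KIT was low in the summed OSMR cells. Its level there ran from 0.86 to 3.44 with a median of 1.59 over 6 animals, from sums of 4 to 242 counts. In ADCYAP1 cells it ran from 6.24 to 8.31 with a median of 7.43, and the groups did not overlap. The fold change was -5.38 (SE 0.33, adjusted p = 1.78e-06 by edgeR), lower in 6 of 6 animals.

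NGFR followed in the same direction with a smaller step. Its level in OSMR cells had a median of 2.10 (0.71 to 3.43) and in ADCYAP1 cells of 4.60 (3.49 to 5.37), again without overlap, and was lower in 6 of 6 animals (-2.35, SE 0.33, adjusted p = 0.000813 by edgeR). RET and GFRA3 went the other way. The level of RET had a median of 8.89 (8.32 to 9.27) in OSMR cells and of 7.85 (7.65 to 8.42) in ADCYAP1 cells, and overlapped between them (0.98, SE 0.17, adjusted p = 0.00328 by edgeR, 6 of 6 animals). For GFRA3 the medians were 8.33 (7.14 to 8.58) and 6.79 (5.67 to 7.55), also with overlap (1.46, SE 0.29, adjusted p = 0.00793 by edgeR, 6 of 6 animals). GFRA3 was thus read in both kinds of neuron, at the higher level in OSMR cells.

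The other 4 members did not pass. NTRK3 was higher in OSMR cells in 6 of 6 animals (0.86, SE 0.32, adjusted p = 0.139 by edgeR), with medians of 3.51 (2.89 to 4.52) and 2.84 (2.09 to 3.11). GFRA1 was higher in 5 of 6 animals (0.41, SE 0.16, adjusted p = 0.181 by edgeR). GFRA2 was lower in 5 of 6 (-3.64, SE 1.27, adjusted p = 0.117 by edgeR), with 2 of the OSMR sums at 0 and animal 5 in the other direction, and NTRK2 in 4 of 6 (-1.25, SE 0.59, adjusted p = 0.263 by edgeR). Neuronal markers had a mean score of 8.12 in OSMR and 7.84 in ADCYAP1 cells. For macrophage markers the scores were 1.11 and 1.34, for satellite glia markers 1.97 and 2.49, and for mast cell markers 0.261 and 0.338. The part of these differences in the result was not tested.

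**Figure D3:**
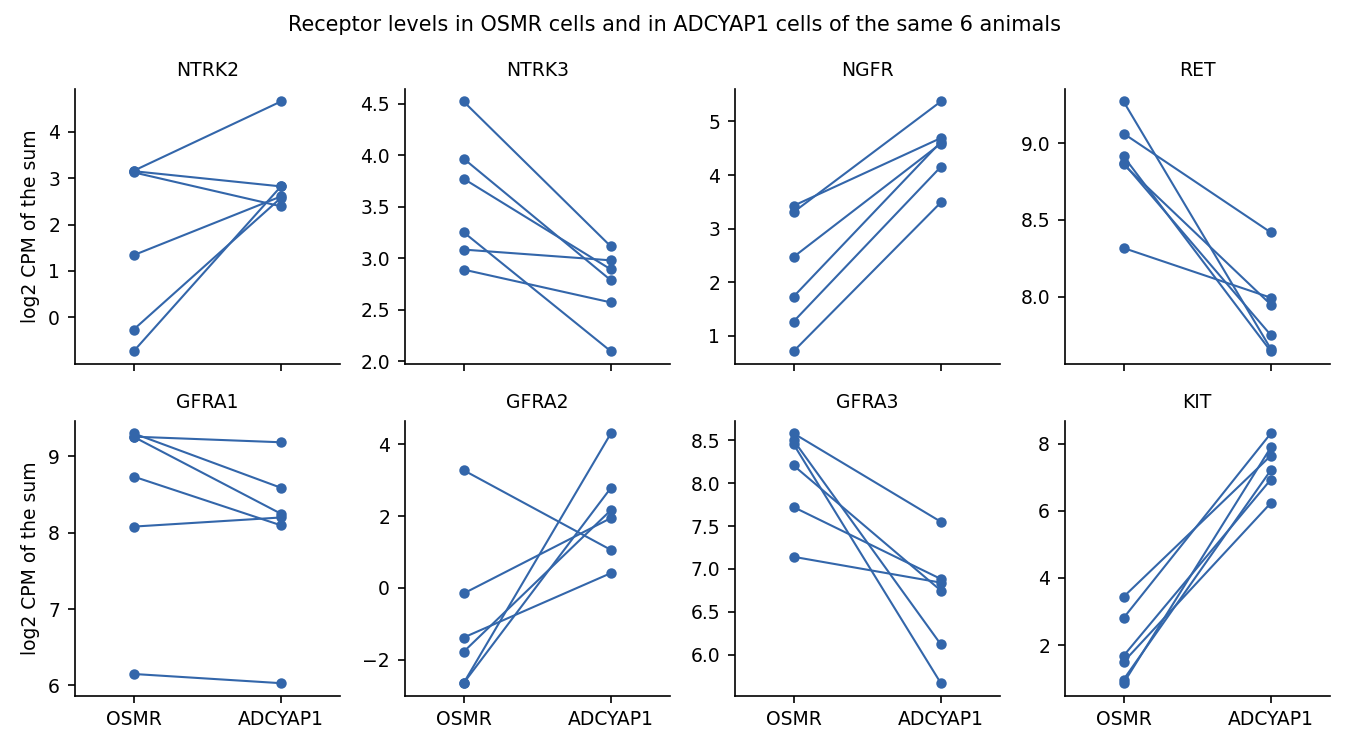
Log2 CPM (y axis, a separate scale for each gene) of the 8 receptors in counts summed over the OSMR cells and over the ADCYAP1 cells of 6 animals. Each line joins the 2 sums of 1 animal: KIT rose from 0.86 to 3.44 in OSMR cells to 6.24 to 8.31 in ADCYAP1 cells in every animal, NGFR also rose, and RET and GFRA3 fell in every animal.

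Other genes of these pathways also differed between the 2 kinds of neuron. Of 56 ligands, other receptors, adaptors and target genes on the list, 35 were tested. Of these, 5 were higher and 7 lower in OSMR cells, where 7.41% of all genes passed. The median log2 fold change was -0.12 over the list and -0.04 over all genes tested. ETV1, an ETS transcription factor, was higher (4.19, SE 0.42), while SPRY4, an inhibitor of kinase signalling, was lower (-3.01, SE 0.57), as was the adaptor gene SH2B3 (-2.51, SE 0.56). Among the ligands, named here after their values were seen, KITLG was higher by 2.32 (SE 0.50, adjusted p = 0.014) in 5 of 6 animals where its receptor gene KIT was lower, and BDNF, the ligand of TrkB, was lower by 2.14 on the log2 scale (-2.14, SE 0.42, adjusted p = 0.00757), both by edgeR.

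In the divisions by single receptors fewer pathway genes passed. By GFRA3, 5 of 35 were higher and 2 lower, where 4.82% of all genes passed. ETV1 had 2.53, the kinase subunit gene PIK3R1 -1.44, the adaptor DOK4 1.21 and phospholipase PLCG1 1.10. By NGFR, 4 of 36 were higher and 1 lower, where 1.13% of all genes passed. The receptor-sorting gene SORCS1 had 1.12 and the transcription factors ETV5 and ETV1 had 1.33 and -2.34. By RET, ETV1 (2.63) was higher and SPRED1 (-0.99), an inhibitor of Ras signalling, lower, 2 of 35 genes against 1.66% of all genes. By KIT, 1 of 35 was higher and 1, ETV1 (-2.86), lower, against 2.51% of all genes. None of the list passed in the divisions by NTRK2, NTRK3, GFRA1 or GFRA2.

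The recorded values were compared in the same way, with the cells of each animal divided at the animal's median of diameter, cslow, APD or the 50 Hz value. RET and GFRA3 were higher in cells of larger cslow and lower in cells with a higher 50 Hz value, and no other member passed in any of the 4 comparisons. By cslow, 2 of 8 members passed, against 1.28% of all genes, and by 50 Hz 2 of 8, against 1.04%. By diameter and by APD no member passed, where 0.712% and 0.447% of genes did. Of 9 neuronal markers tested, 3 were higher in cells of larger cslow and 1 in cells of larger diameter, and 0 passed by APD or 50 Hz. The neuronal marker score was 7.88 in cells of larger cslow against 7.56, and 7.58 in cells of a higher 50 Hz value against 7.85. Its part in the results of RET and GFRA3 was not tested.

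By cslow the GFRA3 level had a median of 7.54 (6.16 to 8.69) in the cells of larger cslow and of 6.12 (4.27 to 7.29) in the others, higher in 9 of 10 animals with overlapping ranges (1.46, SE 0.27, adjusted p = 0.0102 by edgeR). That of RET had a median of 8.53 (7.90 to 8.97) against 7.95 (6.37 to 8.53), higher in 9 of 10 animals (0.80, SE 0.18, adjusted p = 0.044 by edgeR). The call of RET was close to the threshold and was lost in 14 of 18 alternatives, among them leaving out any of animals 1, 3, 4, 6, 7, 8, 9 or 10, with adjusted p from 0.0622 to 0.168. That of GFRA3 was lost in 3 of 18, at 1 day of culture alone (adjusted p = 0.0727), in cells with at least 10000 genes detected (adjusted p = 0.0797) and without the animal as a block (adjusted p = 0.0796), all by edgeR. GFRA1, at 0.51 (SE 0.16, adjusted p = 0.174), was higher in 8 of 10 animals and KIT, at -0.84 (SE 0.46, adjusted p = 0.456), lower in 6 of 10, and neither passed.

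By the 50 Hz value both genes were lower in every animal. The GFRA3 level had a median of 5.91 (3.49 to 7.66) in cells above the animal's median and of 7.57 (6.38 to 8.30) in the others (-1.83, SE 0.26, adjusted p = 0.00146 by edgeR). For RET the medians were 7.68 (6.33 to 8.41) and 8.53 (8.03 to 8.89), with overlap (-0.98, SE 0.18, adjusted p = 0.0104 by edgeR). The call of RET was lost without animal 8 (-0.94, adjusted p = 0.0521 by edgeR). Both calls were lost at 1 day of culture alone and without the 45 cells of highest glia and macrophage score, where GFRA3 had -1.40 (adjusted p = 0.158) and -1.45 (adjusted p = 0.0834) and RET -0.87 (adjusted p = 0.0984) and -0.69 (adjusted p = 0.388), all by edgeR. GFRA1 had -0.50 (SE 0.13, adjusted p = 0.112), lower in 9 of 10 animals. A total of 73 cells had the highest 50 Hz value of 20, so the upper end of this scale was not resolved.

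By diameter the largest differences were those of GFRA3 (0.94, SE 0.35, adjusted p = 0.274), NGFR (-0.60, SE 0.21, adjusted p = 0.237) and RET (0.58, SE 0.17, adjusted p = 0.147, all by edgeR), each in the same direction in 8 or 9 of 10 animals. By APD, RET (0.53, SE 0.12, adjusted p = 0.0749) and GFRA3 (1.12, SE 0.25, adjusted p = 0.0622, both by edgeR) were higher in cells of longer APD in 9 and 8 of 10 animals. The values of GFRA2 and NTRK2 were below 0 by APD, and neither passed. GFRA2 had -3.85 (SE 1.12, adjusted p = 0.19 by edgeR), with 5 of 10 sums of the long side at 0, and was lower in 8 of 10 animals. NTRK2 had -2.11 (SE 0.76, adjusted p = 0.32 by edgeR), also lower in 8 of 10 animals. With DESeq2 all 4 passed. Satellite glia markers ran the same way, with 1 of 6 tested lower in cells of longer APD, a median log2 fold change of -1.13 and a score of 2.12 (1.15 to 2.94 over animals) against 2.70 (1.69 to 3.62) in cells of shorter APD. Without the 45 cells of highest glia and macrophage score GFRA2 had -3.71 (adjusted p = 0.167) and NTRK2 -2.14 (adjusted p = 0.426, both by edgeR).

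Cells with OSMR at 32 CPM or more, with or without ADCYAP1, were unevenly placed on every one of these scales. OSMR reached 32 CPM in 48.2% of cells of larger cslow and 18.97% of the others, in 49.1% and 18.1% by APD, in 45.4% and 21.2% by diameter, and in 12.7% of cells of a higher 50 Hz value and 49.6% of the others. The relation was therefore also computed in the cells with OSMR under 32 CPM, 8 animals for diameter, cslow and APD and 7 for 50 Hz. No member and no other gene passed in any of the 4 (0% of genes, with 516 to 1299 genes at an unadjusted p under 0.05 and 0.0626% to 0.759% of genes passing with DESeq2). GFRA3 had 0.52 (SE 0.56, adjusted p = 0.99) by cslow, -1.38 (SE 0.73, adjusted p = 1) by 50 Hz and -0.35 (SE 0.85, adjusted p = 0.904) by APD, and RET 0.35 (SE 0.26, adjusted p = 0.99), -0.72 (SE 0.35, adjusted p = 1) and 0.03 (SE 0.24, adjusted p = 0.97), all by edgeR. The difference between these values and those in all cells was not tested. GFRA1 did not pass either, at 0.60 (SE 0.22, adjusted p = 0.99) by cslow and -0.64 (SE 0.26, adjusted p = 1) by 50 Hz, and NTRK2 by APD had -2.56 (SE 0.78, adjusted p = 0.598), lower in 7 of 8 animals, all by edgeR.

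**Figure D4:**
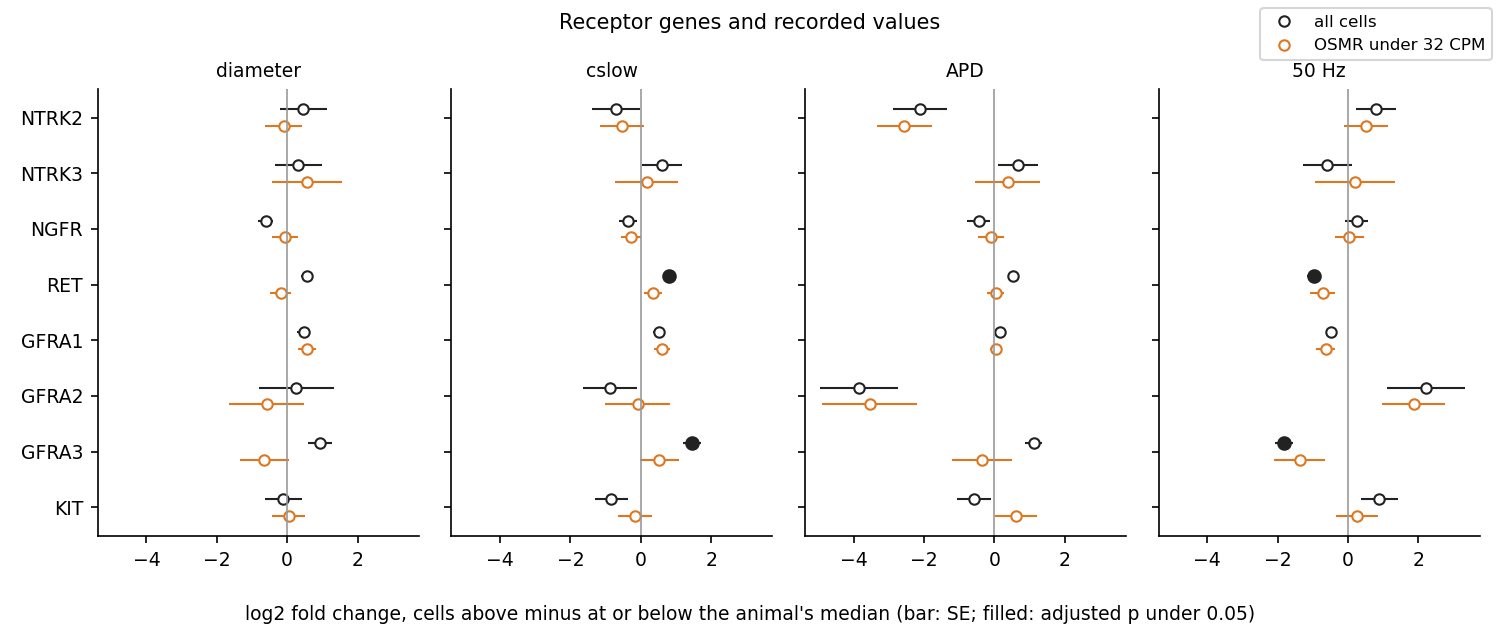
Log2 fold change with SE (x axis) of the 8 receptors between cells above and cells at or below the animal's median of diameter, cslow, APD and the 50 Hz value, in all cells (black, 10 animals) and in cells with OSMR under 32 CPM (orange, 7 or 8 animals). Filled points, with an adjusted p under 0.05, are RET and GFRA3 by cslow (0.80 and 1.46) and by 50 Hz (-0.98 and -1.83) in all cells.

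Recordings were then described for carriers and for the other cells of the same animal, over animals with at least 3 of each, with no test. KIT carriers had a smaller cslow and a higher 50 Hz value than the other cells. Their mean cslow was 62.6 ± 11.2 against 90.7 ± 21.4 in the others (SD, n = 10 animals), lower in 9 of 10 animals, and their mean 50 Hz value 13.3 ± 2.04 against 8.86 ± 3.15, higher in 8 of 10. Their mean diameter was 35.9 ± 2.47 against 39.6 ± 2.76, lower in 8 of 10 animals. With KIT carriage set at 1 CPM, cslow was lower in only 4 of 7 animals (a difference of -16.0 ± 23.2). The 50 Hz value was then higher in 5 of 7. NGFR carriers had a smaller diameter in 9 of 10 animals (36.2 ± 2.12 against 38.5 ± 1.69), whereas their 50 Hz value was higher in 5 and lower in 5.

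GFRA3 and NTRK3 carriers lay on the other side. In GFRA3 carriers cslow was higher in 6 of 6 animals (80.1 ± 9.67 against 64.8 ± 12.8) and the 50 Hz value lower in 6 of 6 (10.5 ± 0.95 against 14.2 ± 1.64). With carriage set at 1 CPM, cslow was higher in 4 of 6 animals and the 50 Hz value lower in 5 of 6. NTRK3 carriers had a higher cslow in 5 of 7 animals (87.3 ± 22.4 against 69.6 ± 10.7) and a lower 50 Hz value in 6 of 7 (9.15 ± 2.39 against 12.2 ± 1.26). RET and GFRA1 carriers, compared with the few cells that lacked them, had lower 20 Hz values in 6 of 6 and 5 of 5 animals (15.9 ± 1.91 against 19.2 ± 1.43, and 15.9 ± 2.09 against 17.4 ± 1.87). With carriage set at 1 CPM, the 20 Hz value was lower in 3 of 4 animals for RET and 4 of 4 for GFRA1. The median 20 Hz value over all cells was 20, which is also the highest value, so the upper end of this scale was not resolved.

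GFRA2 and NTRK2 carriers, which were in part the same cells (14 of the 24 GFRA2 carriers), had a shorter APD than the other cells. For GFRA2 it was 2.13 ± 0.63 against 3.39 ± 0.39, lower in 5 of 5 animals, and for NTRK2 2.67 ± 0.39 against 3.33 ± 0.39, lower in 7 of 7. With carriage set at 1 CPM the APD was lower in 4 of 6 animals for GFRA2 and 10 of 10 for NTRK2. The satellite glia score was 2.90 in cells above and 2.03 in cells at or below their animal's median of NTRK2, and its part in the difference in APD between carriers was not tested. The 100 Hz value was higher in GFRA2 carriers in 5 of 5 animals (8.78 ± 3.18 against 5.64 ± 0.34) and in NTRK2 carriers in 6 of 7. Of 48 combinations of 8 genes and 6 recorded values, 11 went the same way in every animal compared.

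Restricted to cells with OSMR under 32 CPM, part of these differences at 10 CPM were smaller or changed direction, some of them over fewer animals. With carriage set at 1 CPM the cslow difference of KIT carriers did not shrink, as it was -16.0 over all cells. KIT carriers had a cslow of 60.7 ± 12.1 against 66.5 ± 12.2, lower in 5 of 6 animals (a difference of -5.74, against -12.4 with carriage set at 50 CPM, lower in 8 of 8, and -17.6 at 1 CPM, lower in 3 of 3), and a 50 Hz value of 14.1 ± 1.53 against 14.7 ± 1.01, higher in 3 and lower in 3. For GFRA3 cslow was higher in 2 of 6 animals (59.3 ± 9.08 against 64.7 ± 15.8) and the 50 Hz value in 3 of 6. The 20 Hz value of RET carriers was lower in 3 and higher in 2 of 6 animals. That of GFRA1 carriers was lower in 1 and higher in 3 of 5. NTRK3 carriers had a higher cslow in 5 of 5 animals (81.98 ± 22.5 against 62.2 ± 9.20) and a lower 50 Hz value in 5 of 5 (10.8 ± 2.05 against 14.4 ± 1.34). With carriage set at 1 CPM these differences were small beside their spread, at 2.13 ± 21.4 for cslow and -0.78 ± 5.32 for 50 Hz (SD, n = 8 animals). GFRA2 carriers had a shorter APD in 3 of 3 animals (2.13 ± 0.43 against 2.84 ± 0.12), and in 4 of 6 at 1 CPM. NGFR carriers showed a longer APD in 8 of 8 animals (3.02 ± 0.35 against 2.57 ± 0.37), and in 4 of 5 at 1 CPM, where over all cells it was longer in 6 of 10.

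**Figure D5:**
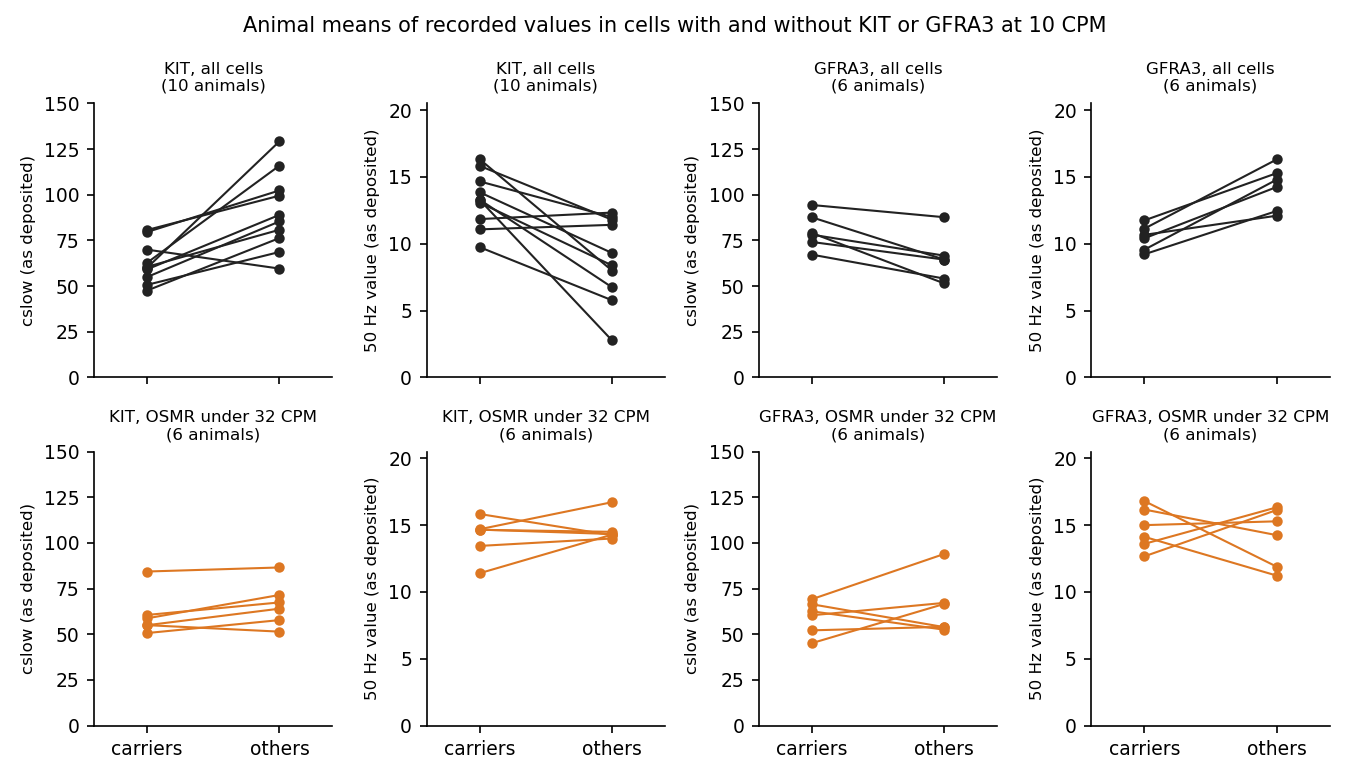
Animal means of cslow and of the 50 Hz value (y axes, as deposited, no unit given) in cells with at least 10 CPM of KIT or GFRA3 and in the other cells, each line 1 animal, over all cells (top) and over cells with OSMR under 32 CPM (bottom). Over all cells cslow was lower in KIT carriers in 9 of 10 animals and higher in GFRA3 carriers in 6 of 6, and among cells with OSMR under 32 CPM the lines of GFRA3 ran in both directions.

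Day of culture and age were compared over sums of counts. Between day 2 and day 1 (7 animals with both) no member passed, nor did any of 16823 genes by edgeR (0%, 971 at an unadjusted p under 0.05, 57 with DESeq2). The largest differences were 1.76 for GFRA2 (SE 1.23, adjusted p = 0.901, higher in 6 of 7 animals) and -0.76 for GFRA3 (SE 0.44, adjusted p = 0.857, lower in 4 of 7), both by edgeR. As shares of cells, GFRA2 was carried by 6.45%, 12.8% and 25% of the cells of the first, second and last day, and NTRK3 by 15.3%, 32.1% and 29.2%, with different animals behind each day and no test. RET was carried by 88.7%, 89.7% and 87.5% of cells on the 3 days. Across age, over 9 animals at 1 day, no member and none of 19706 genes passed by edgeR (0%, 1213 at an unadjusted p under 0.05, 53 with DESeq2), and the slope of KIT was 0.24 per week (SE 0.10, adjusted p = 0.775) and that of RET 0.03 (SE 0.05, adjusted p = 0.975). The animal of 20 weeks had only 2 cells at 1 day and was left out, and the ages 12, 14 and 17 weeks were each 1 animal, so age and animal cannot be told apart there.

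The genes whose levels followed each receptor most closely over single cells were found among 6747 genes with a symbol and a mean of at least 10 CPM, as the mean within-animal Spearman's rho in 9 animals. GFRA3 had the highest correlations, with CDC25C, a cell cycle phosphatase gene, at 0.73, NPPB, the natriuretic peptide precursor, at 0.67 and AVIL, the sensory neuron actin-binding protein advillin, at 0.67. Of the GFRA3 values above 0, 70.5% were not whole. The part of reads shared with another gene in these correlations, that with CDC25C among them, was not tested. RET was followed by SCN9A, the voltage-gated sodium channel gene of nociceptors, at 0.66, FSTL1 at 0.63 and CDS2 at 0.62. GFRA1 was followed by MAGT1 at 0.49, ATL3 at 0.48 and the cell adhesion gene CHL1 at 0.45.

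For the neurotrophin receptors, the genes most like NGFR included STMN4 at 0.55 and ZDHHC22 at 0.55. NTRK2 was followed by SORBS2 at 0.44, CTSO at 0.42 and NQO1 at 0.40, and NTRK3 by ST6GAL1 at 0.42, the fibroblast marker DCN at 0.42 and PDILT at 0.41. KIT was followed by DCBLD2 at 0.61, the stress gene NUPR1 at 0.61 and ADCYAP1 at 0.60. The values of GFRA2, with SMPX at 0.50, CPLX1 at 0.46 and PLCD4 at 0.44, rest on the few cells above 0. In sparse counts such as those of NTRK2, NTRK3 and GFRA2, cells that share depth share detection, and these correlations are descriptions only.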

How the data were processed

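Single neurons were recorded and then sequenced with Smart-Seq2, which uses no molecular identifiers and does not mark strand, per the labels' protocols. Base calls were made with bcl2fastq 2.20, per the submitters' processing notes. Which aligner, counter, build and annotation were used is not given in the sources used here. The authors deposited estimated counts per gene, of which 52.0% of values above 0 were not whole, so sums were rounded. The recorded values were deposited by the authors in a cell table without units, and 43 of its 269 lines belonged to no cell used here. Of 30420 gene identifiers, 14867 were paired with a symbol.

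Counts were summed per animal and side, cells above against cells at or below the animal's median, with at least 3 cells on each side. Animals are the replicates, and the sums were paired because both sides came from the same animal, which entered as a block. Tests used edgeR 4.0.16 (quasi-likelihood, TMM, filterByExpr, Benjamini-Hochberg over all genes, threshold 0.05) in R 4.3.3, with limma 3.58.1, and DESeq2 1.42.0 as an alternative. Log2 CPM of sums and fitted fold changes of genes with sums of 0 depend on the prior count. Shares, correlations and figures used Python 3.11.15, numpy 2.4.6, pandas 2.3.3, scipy 1.17.1 and matplotlib 3.10.9. On simulated counts for the OSMR against ADCYAP1 comparison (16477 genes), 94.0% of 50 genes changed 4-fold and 40.6% of 32 genes changed 2-fold were recovered. Only changed genes with an average log2 CPM above 4 were counted, and the simulated levels did not differ between animals. These rates therefore do not apply to genes of lower level.

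The receptors, the pathway and marker lists and the comparisons were chosen with earlier results of these data known. The text names the 8 receptors in every comparison, at most 4 passing pathway genes of largest change per comparison (beside KITLG and BDNF, chosen after their values were seen), and for each receptor the 3 genes of highest mean within-animal correlation. Alternatives were size factors, DESeq2, no filter on low counts, 1 day alone, without the 45 cells of highest glia and macrophage score, leaving out the cells nearest the median, no block and leaving out each animal. Those restricted to cells with at least 10000 genes detected, and to OSMR under 32 CPM in the divisions by receptor, were chosen after seeing the data. Some genes of the marker and pathway lists are not reported here.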

Additional observations from a re-analysis of the deposited data

Results flagged for a closer look

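In 8 groups of per-animal values (5.56% of those examined) 1 animal lay apart from the others by Dixon's test at the 95% level, where chance gives about 1 in 20 groups. GFRA2 was carried by 31.25% of the cells of animal 10, against 0% to 16% in the other 9 animals. The log2 difference of NTRK2 by cslow was -6.275 in animal 1, against -2.113 to 2.341 in the others, and that of NGFR by cslow was 1.504 in animal 8, against -1.513 to 0.071. In cells with OSMR under 32 CPM, GFRA3 in animal 2 had -4.451 by cslow, against -0.568 to 2.275, and 4.717 by the 50 Hz value, against -2.855 to -0.278, so both GFRA3 values of that animal ran opposite to most others. Animal 8, with 6 cells in all, had -3.095 for NGFR in the division by NTRK2, against -0.862 to 1.268, and 7.258 for NTRK3 in the division by GFRA3, against -2.414 to 2.158. Between day 2 and day 1 NTRK3 differed by 4.418 in animal 5, against -1.31 to 0.53 in the other 6.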

How the results depend on the processing

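The 12 calls kept their direction in every alternative run, and stayed past the threshold in 94 and missed it in 29. Of 1010 alternatives of the differences that did not pass, 22 passed and 73 changed sign, and the cause was not tested. KIT, NGFR, RET and GFRA3 between OSMR and ADCYAP1 cells passed in every alternative run. The count of members passing by cslow (2) was 1 with DESeq2's size factors, without the cells nearest the median and without the 45 cells of highest glia and macrophage score (glia-rich below), 0 at 1 day alone and with at least 10000 genes detected, and 1 to 2 leaving out each animal (1 without animals 1, 3, 4, 6, 7, 8, 9 or 10). Without the animal as a replicate block it was 0, and by 50 Hz (2) it was 1. By 50 Hz it was 0 at 1 day alone and without the glia-rich cells, and 1 to 2 leaving out each animal (1 without animal 8). By APD (0) it was 4 with DESeq2, 2 with no filter and 0 to 2 leaving out each animal (1 without animal 2, 2 without animal 3), and 1 with DESeq2 in OSMR-low cells. By diameter (0), GFRA1 (0) and GFRA2 (0) it was 1 with DESeq2, by KIT (0) 2 with DESeq2 and 1 with no filter, and by NGFR (1) 2 with each. By GFRA3 (2) it was 1 at 1 day alone, where GFRA2 was not tested, without the glia-rich cells and with at least 10000 genes detected. In cells with OSMR under 32 CPM it was 0 by RET, GFRA3 and NGFR. The median number of receptors per cell (4) was 5 at 1 CPM and with at least 10000 genes detected, and 3 at 50 CPM, and the recorded values that ran one way in every animal (11) numbered 4 at 1 CPM.

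Log2 differences that changed sign were as follows. At 1 day alone, NTRK3 had -0.24 and NTRK2 -0.75 by diameter, NTRK3 -0.031 by cslow and -0.46 by NTRK2, GFRA1 -0.041 by NTRK3, -0.036 by RET, -0.21 by NGFR and -0.072 by KIT, KIT 0.41 by RET, GFRA3 0.27 by NGFR, RET 0.027 by KIT and NTRK2 0.45 by KIT. With OSMR under 32 CPM, KIT had 0.74 and GFRA2 0.63 by RET, GFRA1 -0.22 and NGFR 0.42 by GFRA3, GFRA3 1.25 by NGFR and 1.79 by KIT, and RET 0.85 by KIT. With at least 10000 genes detected, NTRK3 had -0.061 by RET and -0.33 by KIT, KIT -0.21 by GFRA3, RET -0.034 and GFRA1 -0.11 by NGFR. Without the glia-rich cells, NTRK3 had -0.24, GFRA2 -0.58 and NTRK2 -0.59 by diameter, NTRK3 -0.021 by APD, GFRA2 0.046 by NTRK3, KIT 0.11 by RET, NTRK2 0.24 by GFRA1, NGFR -0.19 by GFRA2, KIT -0.26 by GFRA3, NTRK3 -0.15 by NGFR and GFRA1 -0.10 by KIT. In OSMR-low cells without the glia-rich cells, KIT had -0.45, NTRK2 0.23 and GFRA3 0.0094 by diameter, NTRK2 0.13 and GFRA3 -0.15 by cslow, NTRK3 -0.34 and RET -0.061 by APD, and NTRK3 -1.19, KIT -0.60, NTRK2 -0.87 and NGFR -0.25 by 50 Hz. With OSMR under 10 CPM, KIT had -0.22 and GFRA3 0.10 by diameter, KIT 0.13 and NGFR 0.091 by cslow, NTRK3 -0.12, KIT -0.093 and RET -0.20 by APD, and NTRK3 -0.30, KIT -1.38 and NGFR -0.22 by 50 Hz. Without the block KIT had 0.26 by diameter and 0.19 by APD, without the cells nearest the median NTRK2 -0.10 by diameter, with no filter NGFR -0.019 by 50 Hz in OSMR-low cells and NTRK2 0.0049 by GFRA1, and with DESeq2 NTRK2 0.0038 by day. Leaving out each animal, the difference by diameter ran from -0.45 to 0.21 for KIT, -0.32 to 0.85 for GFRA2 and -0.069 to 0.68 for NTRK3.

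The share of all genes passing moved by more than 1.5 times: by diameter from 0.712% to 0% at 1 day alone and 3.89% with DESeq2, by cslow from 1.28% to 0.188% without the block and 4.81% with DESeq2, by APD from 0.447% to 0% at 1 day alone and 2.77% with DESeq2, by 50 Hz from 1.04% to 0.254% without the glia-rich cells and 3% with DESeq2, and between OSMR and ADCYAP1 cells from 7.41% to 12.5% with DESeq2. With DESeq2 it was 0.555% (0%) by NTRK2, 1.17% (0.0339%) by NTRK3, 7.73% (1.66%) by RET, 1.5% (0.0233%) by GFRA1, 1.61% (0.101%) by GFRA2, 12.2% (4.82%) by GFRA3, 4.64% (1.13%) by NGFR and 7.03% (2.51%) by KIT, with the edgeR share in parentheses. With OSMR under 32 CPM it was 0% by RET, NGFR and KIT and 0.00633% by GFRA3. The division by GFRA2 at 1 day was not run, since 1 animal remained. Depth limits NTRK2, NTRK3, NGFR and GFRA2, whose carriers had medians of 23.3, 21.6, 24.3 and 33.1 CPM.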
